A study of Caenorhabditis elegans with 3 samples.

Results

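The K2P potassium channels of Caenorhabditis elegans are the subject here: the genes of the twk class together with sup-9, egl-23 and unc-58, which belong to the same family under older mutant names. Members were the probes that the array's annotation gives to 1 gene symbol starting with twk and a number, or to 1 of those 3 older names. This found 43 probes for 43 genes, all with a value on all 3 arrays, among 15159 genes tested. The gene table of assembly WBcel235 lists 47 family genes; twk-45, twk-46, twk-48 and twk-49 had no probe named for them in that annotation and are not analysed here.

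Each of the 3 samples was a 2-colour microarray. It compared RNA of 1 preparation of early L4 hermaphrodites (the last larval stage before the adult) in channel 2 with a mixed reference RNA in channel 1. The labels call the reference wild type, without saying which stages or sexes were mixed, and give the early L4 preparations no strain, genotype, temperature or treatment; the tag TP04 in their names is not explained. Values are log2 ratios, each array centred on its median, so that 1 unit is a 2-fold difference between the channels. Which channel is the numerator is not stated. The descriptions put early L4 first and the reference after it on all 3 arrays, so a positive value was read as more RNA in early L4; this direction is likely rather than settled, and every sign below would turn with it. A stage check under that reading gave 28 of 30 major sperm protein genes higher and 0 lower, with a median log2 ratio of 1.78. Of 16 oocyte and eggshell genes, 14 were lower and 0 higher, with a median of -1.93. Over all genes tested, 12.6% were higher and 10.1% lower. Hermaphrodites of this stage make sperm before oocytes.

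K2P channels, also called tandem pore domain channels, conduct potassium at rest, so that they hold the membrane of a neuron or muscle cell near the potassium potential. Each subunit carries a pair of pore loops, and the subunits assemble as dimers. The nematode has an expanded family, expressed mostly in neurons and muscle, often in few cells per gene. Mutations that open a channel too much cause paralysis, sluggish movement or egg retention, while loss of a single member often has a mild effect.

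Most K2P genes did not pass the test in early L4, and those that did were lower. Of the 43 members, 5 fell (11.6%) and 0 rose with the threshold set at 0.05 for the limma p, Benjamini-Hochberg adjusted over all genes. Over all genes tested, 10.1% were lower and 12.6% higher at the same threshold, 22.7% in all. The share of members that fell is thus close to that of all genes. The share that rose, 0 of 43, lay below the 12.6% of all genes, a difference that was not tested. At an unadjusted limma p under 0.05, 9 of 43 members (20.9%) were lower and 1 of 43 was higher. Among all tested, 2511 of 15159 genes (16.6%) were lower and 2744 of 15159 higher. Leaving out preparation 2, or preparation 3, brought the number that fell from 5 to 3. In both smaller sets the genes left were twk-5, twk-7 and twk-29. Without preparation 1 the number was 5, with 4 genes shared with the full set. Over all genes, the lower share was 7.58% without preparation 2, 7.73% without preparation 3 and 11% without preparation 1. In bulk RNA, fewer cells of a type and less RNA per cell cannot be told apart. The labels do not say if each preparation was a culture of its own. The p-values then cover array-to-array spread, which may be technical, and leave out the spread of the reference.

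**Figure D1:**
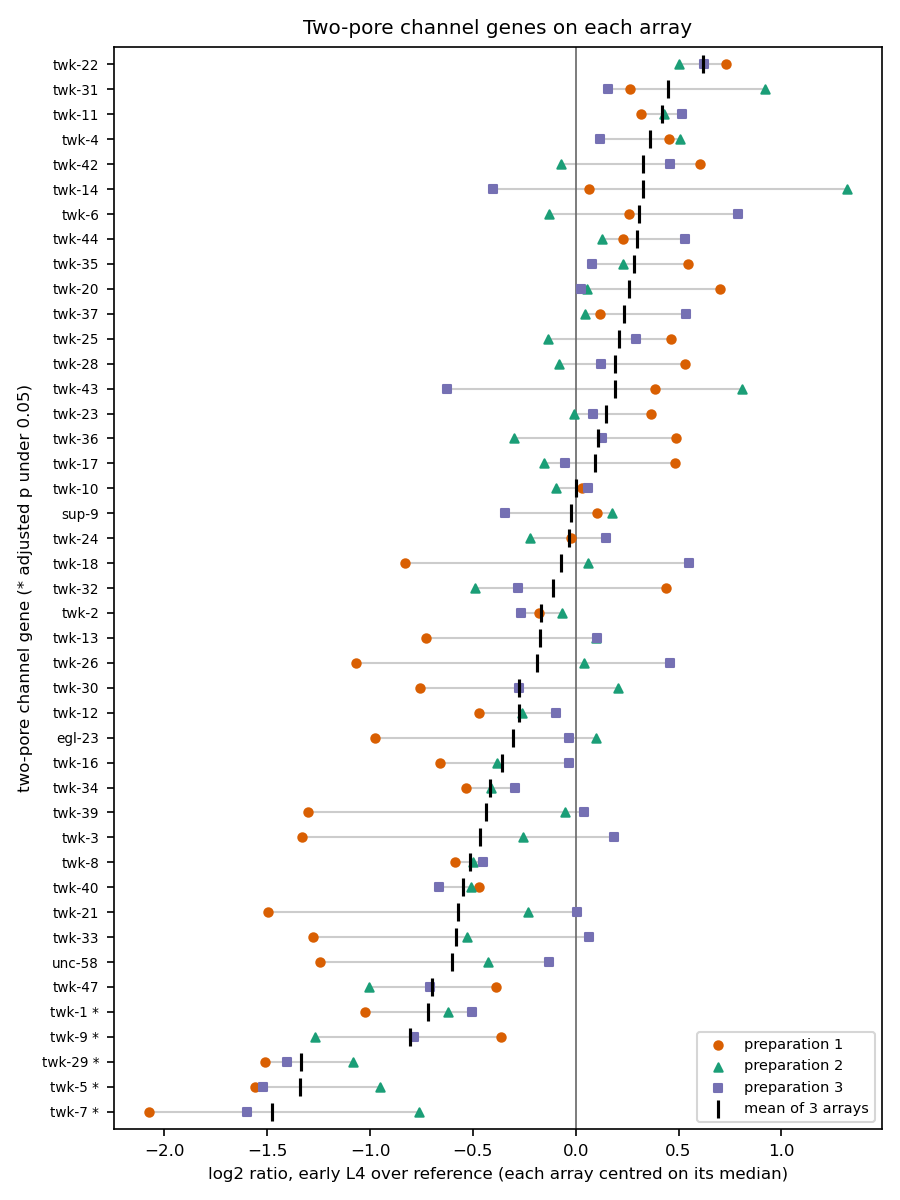
Log2 ratio of early L4 over the reference for the 43 K2P genes, sorted by their mean. Coloured points are the 3 arrays, grey lines their range, black ticks the mean, and an asterisk marks an adjusted p under 0.05. The 5 marked genes lie at the bottom, with all 3 arrays below 0, while many lines in the middle cross 0.

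The 3 members with the lowest means were 2-fold or more below the reference. twk-7 (F22B7.7, chromosome III), a channel of cholinergic motor neurons whose loss makes worms more active, had log2 ratios of -2.08, -0.76 and -1.60 in preparations 1, 2 and 3. All 3 arrays were below 0, and preparation 2 was the least low. The mean was -1.48 ± 0.67 (SD, n = 3), 2.79-fold below the reference (limma adjusted p = 0.00408).

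twk-5 (B0334.2, chromosome II) had -1.56, -0.95 and -1.52. Its mean was -1.34 ± 0.34 (SD, n = 3), 2.54-fold lower (limma adjusted p = 0.00268). Again preparation 2 lay above the other two, which were almost equal. For twk-29 (F46A9.3, chromosome I) the values were -1.51, -1.08 and -1.41, the closest agreement among these 3 genes. It averaged -1.33 ± 0.22 (SD, n = 3), 2.52-fold lower (limma adjusted p = 0.00217). In all, 3 members (6.98%) were past the threshold and at least 2-fold lower, against 6.01% of all genes. These 3 genes kept the call in all 9 alternative settings that were run. Among those settings, only uncentred ratios, quantile normalization and leaving out a preparation changed the ratios of members or the arrays used.

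The remaining members that fell had smaller differences. twk-9 (ZK1251.8, chromosome IV) had -0.36, -1.27 and -0.79, so preparation 1 was the least low here. Its mean was -0.80 ± 0.45 (SD, n = 3), 1.75-fold lower (limma adjusted p = 0.0392), and the call was lost without preparation 2 (adjusted p = 0.332) or preparation 3 (adjusted p = 0.1005). twk-1 (F21C3.1, chromosome I) had -1.03, -0.62 and -0.50, a mean of -0.72 ± 0.27 (SD, n = 3) and a 1.64-fold difference (limma adjusted p = 0.0444). It did not pass with any 1 preparation left out, with adjusted p between 0.0725 and 0.152. twk-47 (F33D11.5), on the same chromosome, stood just outside the threshold: -0.39, -1.005 and -0.71, with a mean of -0.70 ± 0.31 (SD, n = 3; limma adjusted p = 0.0512). The means of twk-9, twk-1 and twk-47 differ by less than the SD of any of them.

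At the upper end, 0 members passed. The highest mean was that of twk-22 (T01B4.2, chromosome X), with 0.73, 0.50 and 0.62, all above 0. It averaged 0.62 ± 0.12 (SD, n = 3), a 1.54-fold difference (limma adjusted p = 0.0645, unadjusted p = 0.0161). twk-31 (Y47D3B.5) followed with 0.26, 0.92 and 0.16, most of its mean of 0.45 ± 0.41 coming from preparation 2. twk-11 (F20A1.7) was steadier, with 0.32, 0.43 and 0.52 and a mean of 0.42 ± 0.10. Both had limma adjusted p-values of about 0.2 (0.217 and 0.193). twk-4 (ZK1067.5) had 0.45, 0.51 and 0.12, and twk-42 (W06D12.2) had 0.60, -0.07 and 0.46. Of the 5 genes with the highest means, twk-42 was the 1 with an array below 0.

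Among the members first known from mutants, 0 of the 4 best described passed. sup-9 (F34D6.3) encodes the channel of the muscle complex with UNC-93 and SUP-10, in which overactive alleles leave muscle unable to contract well. Its log2 ratios were 0.10, 0.18 and -0.34, on both sides of 0, with a mean of -0.02 ± 0.28 (SD, n = 3; limma adjusted p = 0.957). twk-18 (C24A3.6) is a channel of body wall muscle whose overactive alleles paralyse the worm, and it had -0.83, 0.06 and 0.55. Preparation 1 was thus low and preparation 3 high, around a mean of -0.07 ± 0.70. The mean without preparation 1 was 0.31, and after quantile normalization it was 0.02. egl-23 (Y37A1B.11), named for the egg-laying defect of an overactive allele, had -0.98, 0.10 and -0.03. Only preparation 1 lay away from 0, and without it the mean went from -0.30 to 0.03. unc-58 (T06H11.1), whose overactive alleles paralyse the worm as well, had -1.24, -0.43 and -0.13. All arrays were below 0, with a mean of -0.60 ± 0.58 (SD, n = 3; limma adjusted p = 0.132, unadjusted p = 0.0443). Without preparation 1 the mean was -0.28. Alleles of this kind change the channel's activity, and the ratios here speak only of RNA.

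twk-40 (T28A8.1), of motor circuit neurons that drive locomotion, had -0.47, -0.51 and -0.66 and a mean of -0.55 ± 0.10 (SD, n = 3; limma adjusted p = 0.09645). Its arrays were close together and all below 0, but it did not pass. Which other members are neuronal was not tallied.

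The SUP-9 complex has partners that are no pore subunits, and 0 of 3 passed (1 had an unadjusted p under 0.05, below the reference). unc-93, a regulatory subunit, had 0.36, -0.23 and 0.27, and sup-10, the other, had -0.16, -0.24 and -0.12. sup-18, an activator of the complex, had -1.14, -0.51 and -0.51 and a mean of -0.72 ± 0.36 (SD, n = 3; limma adjusted p = 0.0506). The activator was below 0 on all arrays and lay just outside the threshold.

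Not passing does not show that a gene was equal to the reference. Of the 38 members that did not pass, 29 had a 95% limma interval that stayed within a 2-fold difference in both directions, and 9 had an interval that reached beyond it. Over all genes the first kind made up 8878 of the 11715 that did not pass, which is nearly the same share. Those 9 were twk-47, unc-58, twk-33, twk-21, twk-40, twk-3, twk-39, twk-14 and twk-22. twk-2 (T12C9.3) shows the first kind, with -0.18, -0.07 and -0.27 and an interval from -0.64 to 0.31. twk-8 (ZC410.4) was steady below 0, with -0.59, -0.50 and -0.45 and an interval from -0.99 to -0.04 (limma adjusted p = 0.116). The remaining members, twk-6, twk-12, twk-23, twk-24, twk-25, twk-28, twk-30, twk-34, twk-35, twk-37, twk-43 and twk-44, had means between -0.42 (twk-34) and 0.31 (twk-6). twk-10 (K04A8.4) had the mean nearest 0, with 0.03, -0.09 and 0.06 and an interval from -0.48 to 0.47.

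The means of the K2P genes were less spread than those of all genes. Their means ran from -1.48 to 0.62, with an SD across genes of 0.50, against 0.77 over all genes. The median was -0.11, against -0.01 over all genes, and array by array, from preparation 1 to 3, it was -0.18, -0.09 and 0.03. The arrays thus differ by more than the distance of that median from 0. A mean 2-fold or more away from the reference, in either direction and whatever the test, was found for 6.98% of members and 14.8% of all genes. On average 26 members were below 0 and 17 above it.

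**Figure D2:**
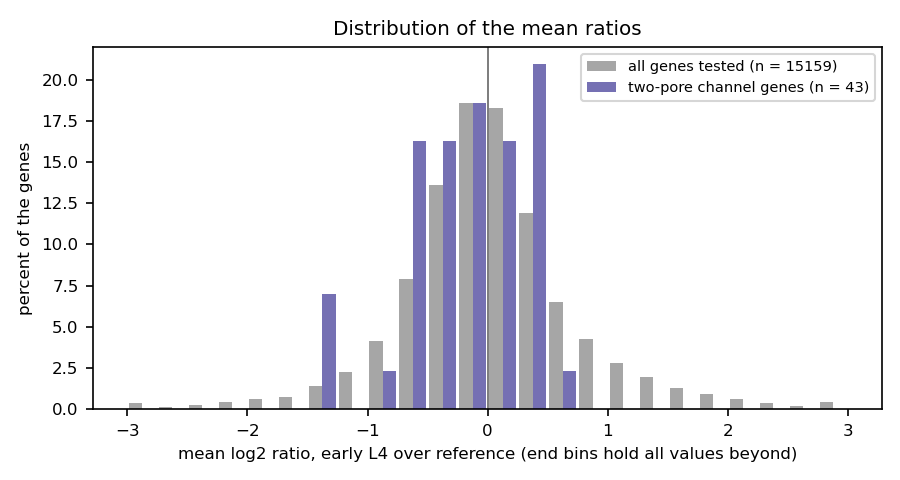
Mean log2 ratio of early L4 over the reference (horizontal axis, bins of 0.25) against the percent of genes in each bin, for the 43 K2P genes and for all 15159 genes tested. K2P genes fill the bins around 0 and a bin below -1, and 0 of them lie above 0.62.

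Correlations between preparations were lower across members than across all genes, while the SD over the arrays was similar. In 21 of 43 members (48.8%) the 3 arrays had 1 sign, 13 of them below 0 and 8 above, against 53.8% of the genes with values on all arrays. Across the 43 members Pearson's r for preparation 1 was 0.501 with preparation 2 and 0.502 with preparation 3, and preparations 2 and 3 had r = 0.516. Spearman's rho, in that order, was 0.473, 0.403 and 0.511. Over all genes r was 0.684, 0.643 and 0.809. The means of members were less spread than those of all genes (SD across genes 0.50 against 0.77), and r depends on that spread. These correlations are across genes, which are not independent replicates, and the arrays share the reference and the channel layout, so they are given as descriptions. The median SD of a member over the arrays was 0.34, close to the 0.36 of all genes.

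Many of the wide ranges came from the array of preparation 1. In 9 members it lay more than 0.5 below both other arrays: unc-58, twk-33, twk-21, twk-3, twk-39, egl-23, twk-26, twk-13 and twk-18. That is 20.9% of members, close to the 18.9% of all genes. In 3 members, twk-32, twk-20 and twk-17, it lay more than 0.5 above both (6.98%, against 12.9% of all genes). Over all genes the SD of the ratios was 0.94 on this array and 0.84 and 0.80 on the others. Preparation, array and the date-like tag in the array titles vary together, so they cannot be told apart here.

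The genes behind this pattern include the members with the largest spread whose arrays differ in sign. twk-21 (T01B4.1) had -1.50, -0.23 and 0.00, an SD of 0.81. twk-26 (C33D12.3) had -1.07, 0.04 and 0.46, an SD of 0.79, and its mean went from -0.19 to 0.25 without preparation 1. Another gene, twk-3 (M110.2), had -1.33, -0.26 and 0.19. The widest of all was twk-14 (K01D12.4), at 0.06, 1.32 and -0.40 with an SD of 0.89, where preparation 2 stood out instead. In all 4 of these genes the centred arrays lie on both sides of 0, for twk-21 by only 0.0044 in preparation 3. The median of that array was -0.0247 before centring, so the positive sign there comes from the centring.

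**Figure D3:**
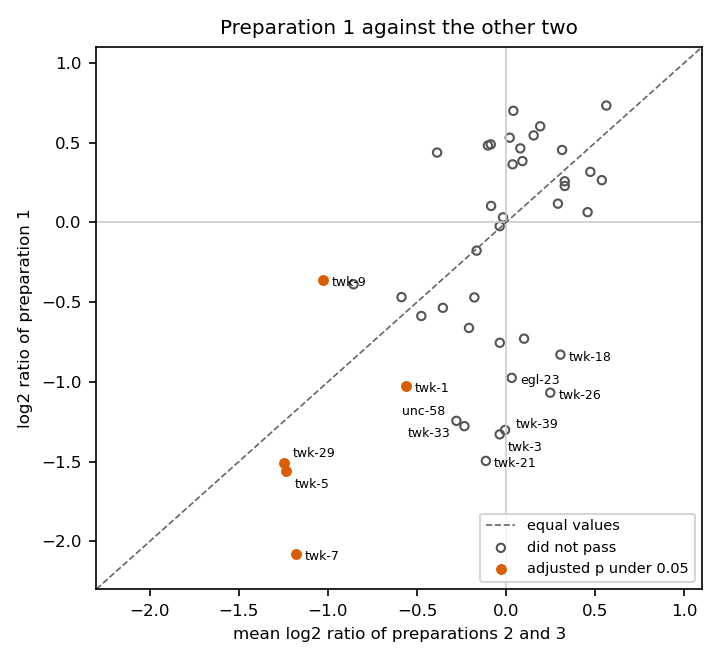
Log2 ratio in preparation 1 (vertical axis) against the mean of preparations 2 and 3 (horizontal axis) for the 43 K2P genes; the dashed line marks equal values and filled points an adjusted p under 0.05. The genes twk-21, twk-3 and twk-39, near 0 on the horizontal axis, reached -1.30 or lower in preparation 1.

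The family is spread over all 6 chromosomes, and the genes that fell were not spread evenly. By the gene table, 5 members lie on each of chromosomes I, II and III, 4 on IV, 13 on V and 11 on X. All 5 that fell lie on chromosomes I to IV, among 19 members there, and 0 of the 24 on V and X passed. The median log2 ratio was -0.44 for the 19 and 0.05 for the 24. Over all genes, 10.9% on I to IV and 8.81% on V and X were lower, with medians of -0.01 and 0.00. This division was drawn after the values were seen, so it is a description with no test.

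**Figure D4:**
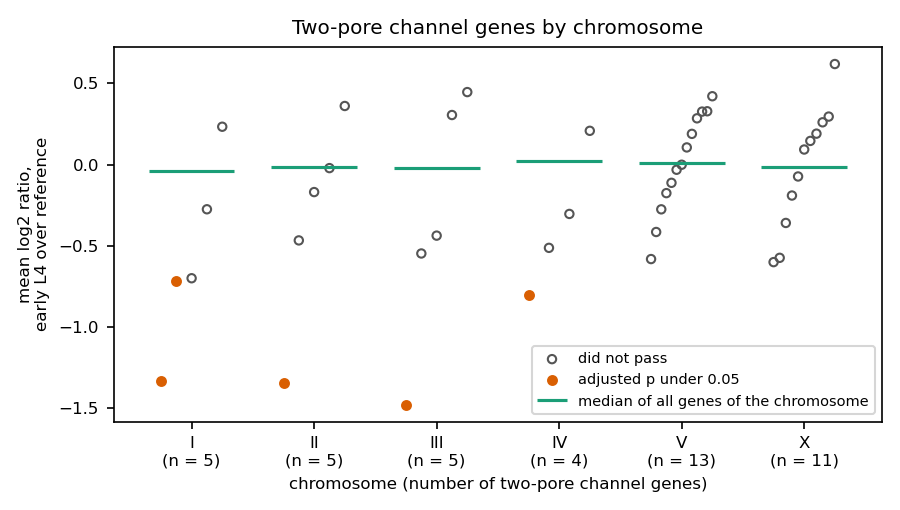
Mean log2 ratio of early L4 over the reference for each K2P gene, by chromosome. Open circles did not pass, filled points had an adjusted p under 0.05, and the green line is the median of all genes tested on that chromosome. The filled points lie on I, II, III and IV, while the green lines are all within 0.04 of 0.

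Some members neighbour each other in the genome, and differences between their means were not tested. twk-21 and twk-22 are adjacent protein-coding genes on chromosome X, with 0 others between them, and had means of -0.57 and 0.62. twk-22 was the higher of the pair on every array, by the most in preparation 1. On chromosome V, twk-33, twk-42 and twk-36 lie close together, with 2 and then 1 protein-coding genes between them. Their means were -0.58, 0.33 and 0.11. The arrays of twk-33 ran from -1.28 to 0.06, and the means of twk-42 and twk-36 differed by less than the SD of either. twk-26 and twk-16, separated by 3 protein-coding genes on X, had -0.19 and -0.36, a difference smaller than the spread of twk-26 over the arrays. Of these 7 genes, 0 passed the threshold.

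The other potassium channels had a median close to that of the K2P genes with all arrays, but which list was lower changed with the arrays used. Without preparation 1 the medians were -0.13 for the other channels and -0.04 for K2P genes, without preparation 2 -0.19 and -0.17, and without preparation 3 -0.0479 and -0.12. The list of voltage-gated, calcium-activated and inward rectifier channels (kvs, kqt, slo, kcnl and irk classes, shk-1, egl-2, egl-36, unc-103 and exp-2) had 20 measured genes, a median of -0.10, 1 gene that rose and 0 that fell. Over all genes 12.6% rose and 10.1% fell. The 1 that rose was kqt-2, of the KCNQ class, with 1.20, 0.85 and 0.38 and a mean of 0.81 ± 0.41 (SD, n = 3; limma adjusted p = 0.0355). Within this list 2 genes had an unadjusted p under 0.05 below the reference. kcnl-4, of the calcium-activated class, had -1.84, -0.43 and -0.49, again lowest in preparation 1 (adjusted p = 0.0524). Without preparation 3 the number past the threshold was 4, without 2 it was 2, and without 1 it was 0.

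Channels that act against the potassium leak, namely the NALCN sodium leak channels and the voltage-gated calcium channels with their subunits, had 12 measured genes. Of these, 4 fell (33.3%, against 10.1% of all genes) and 0 rose, with a median of -0.20. unc-77 (C11D2.6), a NALCN pore gene, had -0.51, -1.18 and -0.96 and a mean of -0.88 ± 0.34 (SD, n = 3; limma adjusted p = 0.021). Its paralogue nca-2 had -0.59, -0.78 and -0.66 (adjusted p = 0.0464), with arrays close together. unc-36, an accessory calcium channel subunit, and unc-2, the pore of the synaptic calcium channel, had means of -0.77 ± 0.31 and -0.66 ± 0.12 (limma adjusted p = 0.0361 and 0.04997). The muscle calcium channel egl-19 did not pass, with 0.56, 0.46 and 0.34. All 4 calls were lost without preparation 2, as they were without preparation 3, and 3 genes passed without preparation 1.

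**Figure D5:**
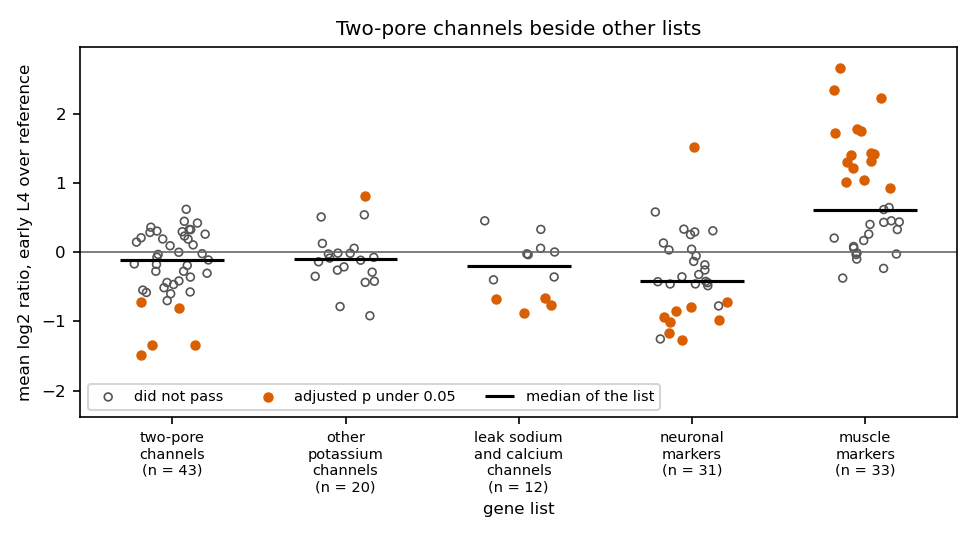
Mean log2 ratio of early L4 over the reference (vertical axis) for K2P genes, other potassium channels, sodium leak and calcium channels, and marker genes of neurons and muscle. Each point is a gene, filled where the adjusted p was under 0.05, and the black bar is the median of the list, from -0.42 for neuronal to 0.62 for muscle markers. K2P points centre between these bars.

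Among markers of the tissues in which K2P channels act, those that passed were mostly lower for neurons and higher for muscle. Of 31 neuronal markers, 8 fell (25.8%, against 10.1% of all genes) and 1 rose (3.23%, against 12.6%), with a median of -0.42. Among those that fell, the GABA synthesis gene unc-25 had -1.26 ± 0.35 and the synaptic vesicle priming gene unc-13 had -0.98 ± 0.35. The broadly neuronal rgef-1 had -0.85 ± 0.09 (SD, n = 3). On average 22 of the list were below 0 and 9 above it, with unc-104 at 0.58 ± 0.55 (SD, n = 3; limma adjusted p = 0.1385). The 1 that rose, tbb-1, encodes a beta-tubulin that is not confined to neurons. Of 33 muscle markers, 15 rose (45.5%, against 12.6% of all genes) and 0 fell (against 10.1%), with a median of 0.62. The means of 27 lay above 0 and those of 6 below it. A body wall muscle myosin gene, myo-3, had 1.14, 1.90 and 2.21. By contrast, unc-54 of the same list had 0.72, -0.35 and 0.41, outside the threshold (limma adjusted p = 0.517). By preparation, the medians of the neuronal list were -0.51, -0.17 and -0.24, and those of the muscle list 0.56, 0.59 and 0.57. The muscle channel genes twk-18 and sup-9, with means of -0.07 and -0.02, did not pass. What part the amounts of nerve and muscle RNA have in the K2P ratios was not tested.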

How the data were processed

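The authors deposited 1 log2 ratio between both channels for each probe and array, with medians of 0.0538, -0.0816 and -0.0247 in preparations 1, 2 and 3. Dyes, scanner, background correction, normalization and direction: not given in the sources used here. Spot brightness was not used here, so background and dye bias could not be examined. The small number of arrays limits the precision as well.

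Of 20000 probes, 15655 had 1 gene symbol in the platform annotation of GEO, which is old; 15569 were matched to the RefSeq gene table of WBcel235 by gene number and 86 by symbol. Ratios were centred on the array median, and probes of 1 gene were averaged. Each K2P gene had 1 probe. Genes with at least 2 values were tested with limma 3.58.1 in R 4.3.3 (mean against 0, in both directions, prior degrees of freedom 7.59). P-values were adjusted by Benjamini-Hochberg over 15159 genes, and the threshold was 0.05. The pipeline was tested on simulated ratios, where it missed most 2-fold changes, recovered nearly all 4-fold changes, and made a share of false calls above the threshold. Far fewer genes were changed in the simulation than were called in these data. The shares recovered and missed there therefore need not hold here.

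The members, lists and tests were chosen with earlier results of these data known. All members are accounted for. Those past the threshold, the 5 highest, the 5 lowest, those with the largest spread and the best known were given array by array. Other genes singled out were picked after their values were seen. Of the listed genes shl-1, cha-1, deb-1, lev-11, unc-63, slo-1 and puf-11 were not measured under those names, and nca-1 is listed as unc-77. Intestinal markers had 6 higher and 0 lower of 10, where 12.6% of all genes were higher and 10.1% lower. Whether probes of related members share RNA was not tested. Alternatives left the ratios uncentred, normalized them by quantiles, kept genes on all arrays, used the trend and robust settings of limma, tested probes singly or every probe, or left out each preparation.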

Additional observations from a re-analysis of the deposited data

How the results depend on the processing

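The number of K2P genes that fell was 4 to 6 in the 6 settings that kept all arrays and 3 to 5 with 1 preparation left out. Of all genes or probes tested, 8.35% (every probe) to 12.8% (quantile normalization) were lower in the former settings. With 1 preparation left out this share was 7.58% to 11%. No K2P gene rose in any of the 9 settings. The median of the members stayed between -0.17 and -0.04. The count over all genes, 3444, lay between 2423 (without preparation 2) and 4054 (quantile normalization). In the settings that tested probes singly or every probe, probes were counted rather than genes. For other potassium channels, 1 gene past the threshold became 3 after quantile normalization and 2 without centring. With probes tested singly, 2 probes of these channels passed. With 1 preparation left out, 0 to 4 of these genes passed, and their median ranged from -0.1908 to -0.0479. For sodium leak and calcium channels, 4 genes became 2 with trend and robust settings, and 0 to 3 with 1 preparation left out. With probes tested singly or with every probe, 5 probes of these channels passed. The cause of these changes was not tested. No K2P gene that passed changed sign. With 1 preparation left out this was fixed beforehand, since all 3 arrays of these genes lay below 0. Of the other settings, only quantile normalization and the uncentred ratios changed their values. twk-1 also lost its call with trend and robust settings (adjusted p = 0.0536) and over every probe (0.052). twk-47 gained one as deposited (0.0484), after quantile normalization (0.0245) and without preparation 1 (0.0196). Of the 43 members, 12 changed sign with 1 preparation left out; all had arrays of both signs. Their means then ranged from -0.50 to 0.0317 for egl-23, -0.52 to 0.25 for twk-26, -0.31 to 0.10 for twk-13, -0.39 to 0.0775 for twk-32, -0.39 to 0.31 for twk-18, -0.12 to 0.0626 for twk-24, -0.12 to 0.14 for sup-9, -0.0315 to 0.046 for twk-10, -0.10 to 0.22 for twk-17, -0.086 to 0.31 for twk-36, -0.12 to 0.60 for twk-43 and -0.17 to 0.69 for twk-14. For twk-18 the sign also turned after quantile normalization (0.016). No paired analysis was possible because the 3 arrays form 1 group. Limits set by signal over background could not be examined, since spot brightness is not used here.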
